A study of Homo sapiens with 18 samples.

Results

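The transcriptome of PC3 cells depleted of Elongin C was compared with that of cells carrying a control hairpin. PC3 is an established human prostate cancer line, and the cells were grown in RPMI with 10% fetal calf serum. They carried a lentiviral short hairpin RNA (shRNA) against Elongin C (EloC KD, 3 libraries) or a control hairpin (Control KD, 3 libraries); 3 further libraries carried a hairpin against Elongin B (EloB KD). A second experiment of the series treated PC3 cells in 2.5% serum for 24 h with a scrambled peptide or a BC-box peptide, wild-type or mutant. A gene entered the comparison when its mean normalised read count over the 9 knockdown libraries was at least 10, which 13764 of the 20365 genes in the table did. Nothing in the labels ties replicates to separate cultures or gives the number of hairpins per target, so p-values measure only the spread between these samples, which may be technical.

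Elongin C is a small adaptor protein that pairs with Elongin B. The pair binds Elongin A, the subunit that speeds RNA polymerase II along its template, and it links cullin 2 and cullin 5 to substrate receptors that carry a BC-box, among them the von Hippel-Lindau protein and the SOCS proteins. Its loss can therefore touch both transcription and the ubiquitin-dependent turnover of many proteins, including hypoxia-inducible factors and signalling intermediates.

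The 6 libraries held 40.3 to 57.2 M counted reads, with 2.6% to 4.75% of them from mitochondrial genes. On the first principal component of the knockdown experiment (51.2% of the variance) the Control KD libraries lay between -29.5 and -20.5, and the EloC KD libraries at 42.6, 65.2 and 44.8. EloC KD replicate 2 thus stood apart from replicates 1 and 3, and list counts are also given without it. Prostate epithelial markers were present in all 6 libraries, with a summed normalised count of 50888 to 58045 in Control KD and 26461 to 33502 in EloC KD. KLK3 (prostate-specific antigen) and FOLH1 were at 0 in all 6 libraries, a state known for PC3. Of 12 immune markers, 2 were at 0 in all 6 libraries and 5 reached a mean of 10, and their summed level was 2415 to 2885 in Control KD and 2487 to 3136 in EloC KD.

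The targeted gene was measured first. ELOC (chromosome 8, 73939169 to 73972287, GRCh38) had normalised read counts of 4797, 4097 and 4547 in the Control KD libraries, and of 491.8, 497.4 and 557.9 after EloC KD. All EloC KD libraries lay far below all controls, by 8.67-fold (log2 fold change -3.12 ± 0.10, limma adjusted p 1.41e-07). ELOA, which encodes the elongation factor bound by the pair, fell as well: its counts were 6583, 6187 and 6901 in Control KD and 4278, 3704 and 3864 in EloC KD, and the groups did not overlap (-0.73 ± 0.10, limma adjusted p 0.000332). ELOB, the partner gene, overlapped between the groups, with 2626, 4118 and 4950 in Control KD and 4563, 5603 and 5600 in EloC KD (log2 0.47 ± 0.20, limma adjusted p 0.0803); with replicate numbers as a block its limma adjusted p was 0.035, and leaving out Control KD replicate 3 gave 0.0187. TMEM70, the neighbour of ELOC at a distance of 149 bp, was higher (log2 0.56; named after its value was seen).

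In all, 5844 of the 13764 genes (42.5%) differed from Control KD at an adjusted p under 0.05, 2926 of them higher (21.3%) and 2918 lower (21.2%). These shares are the background against which each gene list below is to be read. The median log2 fold change over all genes tested was 0.01. At least 2-fold changes were called for 1435 genes (10.4%), 777 higher (5.65%) and 658 lower (4.78%). Fold changes are on the log2(normalised count + 1) scale, which understates changes of low genes. The balance was lost among the largest changes: 179 genes were higher and 60 lower by at least 4-fold, and 60 were higher and 6 lower by at least 8-fold. EloC KD replicate 2 lay farthest from the control mean in 71.2% of the higher and 72.5% of the lower 2-fold genes. Without it 2167 genes were higher and 2339 lower. In 7394 genes (53.7%) the 3 EloC KD libraries did not overlap the 3 controls; the genes named below were mostly picked for a small p, so that theirs do not overlap is a description. With the replicate number as a block, which pairs libraries of the same number, 7841 genes were called (57%), including all 5844. Of these 7841 genes 3944 were higher and 3897 lower. List counts under the block are to be read against these larger numbers, not against 21.3% and 21.2%. Where no block is named, calls come from the main fit, which leaves this pairing out.

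The 15 highest genes were chosen among those whose groups do not overlap. CPA4, which encodes a secreted carboxypeptidase, had 325.0, 611.2 and 354.3 normalised counts in Control KD and 7055, 9159 and 6036 in EloC KD, a 17.7-fold rise. IL24, a cytokine of the interleukin-10 family, went from 33.9, 27.2 and 21.9 to 608.6, 1536 and 819.9. EloC KD replicate 2 was the highest library in both genes. OLFML3, a secreted olfactomedin protein, rose 35.2-fold, EDN1, the vasoconstrictor endothelin-1, 17-fold, and ABCC9, the sulfonylurea receptor of potassium channels, 15.1-fold. CNTN5 (a neuronal adhesion protein, 42.5-fold), SUN3 (a nuclear envelope protein, 28.3-fold), FCMR (an immunoglobulin M receptor, 14.5-fold) and POU2F2 (the transcription factor OCT2, 13.4-fold) belonged to the same 15 highest genes. SUN3 had means of 7.6 in Control KD and 6.37 in EloB KD, so it also passed the filter on low values through EloC KD.

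Several of these rises were uneven across replicates. ANKRD1, a cardiac ankyrin repeat protein and YAP target, had 168.2, 1523 and 369.4 counts in EloC KD and 4.71, 14.1 and 14.6 in Control KD. ACTBL2, an actin-like gene, had 34.6, 218.7 and 42.1 against 0.942, 3.51 and 2.44. Its mean in EloB KD was 5.72, so it passed the filter on low values through its EloC KD libraries. ADAMTS12, a secreted metalloprotease, had 24.7, 235.8 and 38.9 against 2.83, 7.9 and 0, and it lost its call without EloC KD replicate 2 or Control KD replicate 3. In these 3 genes replicate 2 was several times above replicates 1 and 3.

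**Figure D1:**
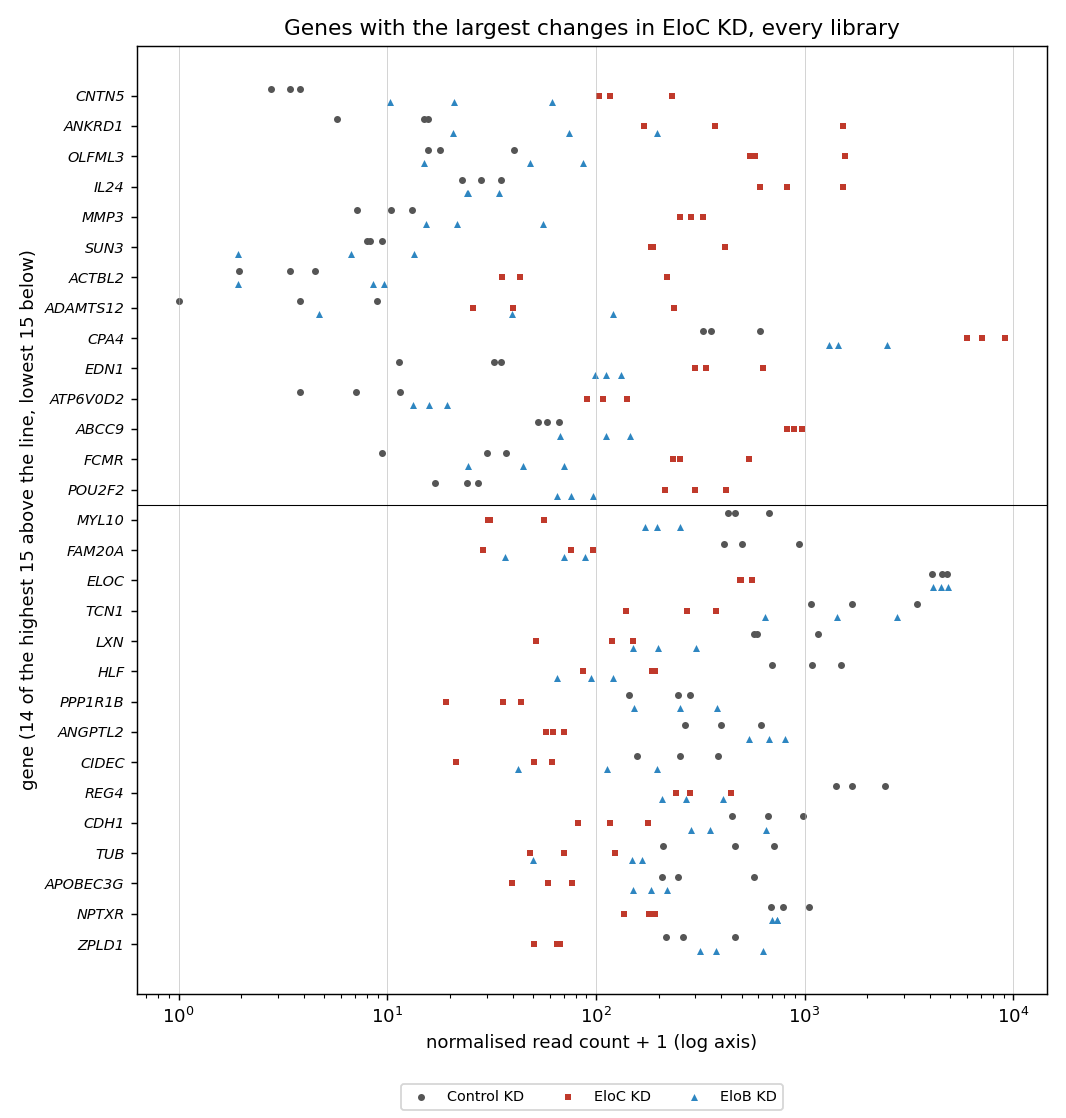
Normalised read count plus 1 (log axis) of 14 of the 15 genes with the highest and the 15 with the lowest log2 fold change in EloC KD, for each of the 9 libraries (grey circles Control KD, red squares EloC KD, blue triangles EloB KD; 3 points per group). Red and grey points do not overlap for any gene, which the choice of genes requires, and the blue points of most genes lie nearer to grey than to red.

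Among lower genes, MYL10, a myosin light chain gene, fell most: it had 676.4, 426.8 and 462.6 counts in Control KD and 55.4, 30 and 29.5 in EloC KD, 13.6-fold lower. FAM20A, a pseudokinase of the secretory pathway, had 936.4, 411.0 and 499.2 against 96, 27.9 and 74.7 (9.69-fold lower). Both fell more than ELOC itself. Secreted proteins of mucosal epithelium were among the 15 lowest: TCN1, the vitamin B12 carrier haptocorrin, fell 7.6-fold and REG4, a lectin of intestinal epithelium, 5.74-fold. The carboxypeptidase inhibitor latexin, LXN, fell 7.54-fold, while the carboxypeptidase gene CPA4 rose. The circadian output factor HLF fell 7.17-fold, CIDEC, a lipid droplet protein, 6.13-fold, and the antiviral cytidine deaminase gene APOBEC3G 5.46-fold. CDH1, which encodes E-cadherin, had 978.8, 666.5 and 449.3 in Control KD and 176.1, 115.8 and 81 in EloC KD, with the highest EloC KD library well below the lowest control.

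Gene lists of pathways and complexes are described next by how many tested members were called, beside the 21.3% higher and 21.2% lower of all genes. No test was made of a list as a whole.

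**Figure D2:**
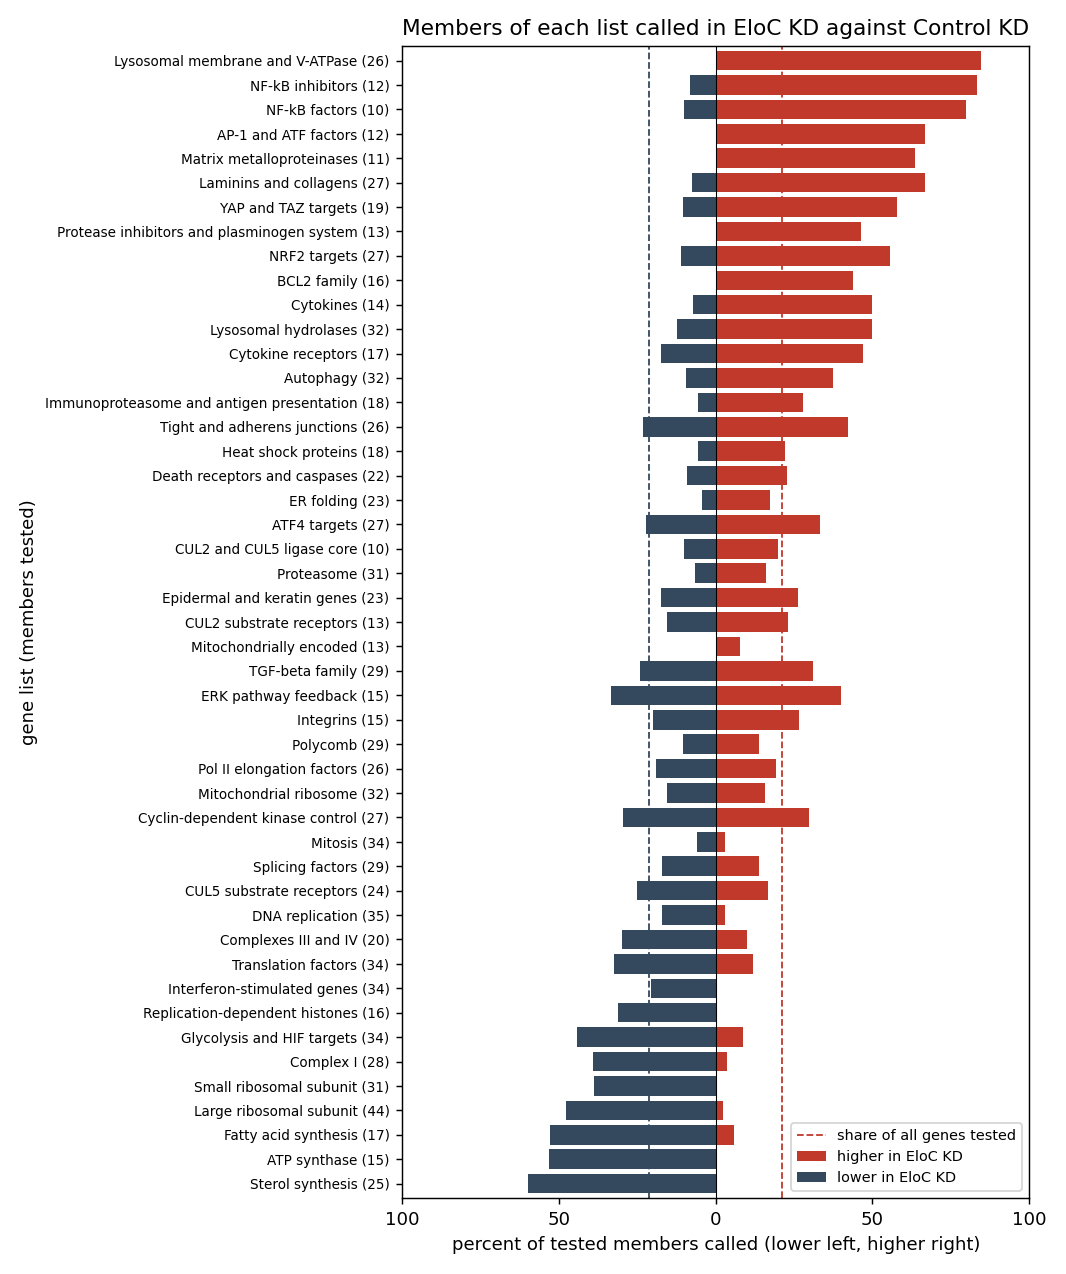
Percent of tested members called, for each list with at least 10 of them, higher (red, to the right) or lower (dark, to the left) in EloC KD against Control KD, with the number tested in brackets and dashed lines at the shares of all genes tested (21.3% higher, 21.2% lower). Lysosomal membrane genes, NF-kB inhibitors and NF-kB factors have the highest share of higher members, and sterol synthesis and ATP synthase genes the highest share of lower members.

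Genes of the Elongin C ligases were called about as often as other genes. Of 10 cullin 2 and cullin 5 core genes 2 were higher and 1 lower: RNF7, the RING subunit of cullin 5 ligases, rose (log2 0.62 ± 0.13), as did the neddylation factor DCUN1D1 (0.38 ± 0.09), and ARIH1, a ubiquitin ligase that works with neddylated cullins, fell (-0.81 ± 0.09). Of 13 cullin 2 receptors 3 were higher and 2 lower, led by KLHDC3, a receptor for C-terminal degrons (0.78 ± 0.13). Of 24 tested cullin 5 receptors 4 were higher and 6 lower. SPSB1, which targets inducible nitric oxide synthase, had 1095, 1274 and 1194 counts in Control KD and 2737, 3537 and 2988 in EloC KD. ASB9, a receptor for creatine kinase B, moved the other way, from 5626, 6362 and 5055 to 2295, 1970 and 2421, and ASB8 and RAB40B also fell (-0.78 and -0.94). Among 26 factors of RNA polymerase II elongation 5 were higher and 5 lower, with SUPT5H, a subunit of DSIF, at 0.54 ± 0.08 and PAF1, of the PAF complex, at -0.83 ± 0.13. Shares in these lists were near the background. With the replicate block 4 core genes were higher and 1 lower, and 5 cullin 2 receptors were higher and 3 lower. Of the elongation factors 7 were then higher and 8 lower.

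Most tested genes of the NF-kB system rose. NF-kB is a family of transcription factors held inactive by inhibitors that its own activity induces. Of 10 tested factors and kinases 8 were higher and 1 lower (median log2 0.53; 7 and 1 without EloC KD replicate 2), and of 12 inhibitors 10 were higher and 1 lower (median 0.88; 9 and 1). MAP3K14, the kinase NIK that starts the non-canonical pathway, had 673.6, 774.5 and 848.6 counts in Control KD and 1883, 2970 and 2130 in EloC KD. RELB, the non-canonical subunit, went from 122.5, 146.7 and 138.8 to 259.3, 451.3 and 364.2, and NFKB2, its precursor partner, from 1661, 1439 and 1541 to 2481, 2481 and 2267. In these 3 genes the EloC KD libraries lay above the controls, as in genes picked for a small p. Among the inhibitors, TNFAIP3 (the deubiquitinase A20) went from 179.0, 203.7 and 181.4 to 1623, 2255 and 1706, log2 3.29 ± 0.14 with a limma adjusted p of 1.72e-06. NFKBIA (IκBα) rose by 1.22 on the log2 scale, NFKBIB (IκBβ) by 1.36, the adaptor gene TRAF1 by 2.57 and the deubiquitinase gene CYLD by 0.81. Under the replicate block 10 inhibitors were higher and 2 lower.

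Several chemokine and cytokine genes rose from a very low level in control cells. Of 14 chemokines 8 passed the filter on low values; 4 of these were higher and 1 lower (median 1.13; the same counts without EloC KD replicate 2). CCL20, which attracts CCR6-bearing lymphocytes, had 0, 0.878 and 2.44 counts in the Control KD libraries and 72.2, 55.7 and 73.7 in EloC KD. It passed the filter through its EloC KD libraries, so its higher call is not independent of the filter. With a mean of at least 50 as filter, 3 chemokines were higher and 1 lower. The neutrophil attractants CXCL2 and CXCL3 went from 17.9, 26.3 and 40.2 to 230.6, 209.0 and 214.7 and from 16, 26.3 and 32.9 to 191.0, 152.2 and 167.4. These 3 genes were even across EloC KD replicates, and replicate 2 was not their highest. CXCL16, a transmembrane chemokine, fell (-0.95 ± 0.16). Of 18 cytokines 14 were tested, with 7 higher and 1 lower (median 0.96 and 0.61 without EloC KD replicate 2). IL6, the acute phase cytokine, had 15.1, 11.4 and 15.8 in Control KD and 166.2, 218.7 and 161.0 in EloC KD. TNFSF15 rose by 3.68 on the log2 scale, and the colony stimulating factor genes CSF1 and CSF2 by 2.04 and 2.21. TNF was not tested, with 0 counts in the 3 controls and at most 3.16 in EloC KD. Of 17 receptors 8 were higher and 3 lower: IL1RL1, the interleukin-33 receptor, rose from 287.3, 845.7 and 401.8 to 3257, 8443 and 4061, IL6R by 1.44, IL4R by 0.94 and IFNGR1 by 0.81, and IFNAR1, an interferon receptor subunit, fell (-0.43 ± 0.07). In the fit with the replicate block, 8 cytokines were higher and 2 lower, and 10 receptors were higher and 6 lower.

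The promoters of CCL20 and IL6 show what an NF-kB motif looks like in these genes. RefSeq promoter windows (GRCh38.p14, 250 bases before to 50 after a start) were available for 11030 of the 13764 genes and were searched on both strands for the kappaB site. It was present in 14 of 39 windows (35.9%) of the inhibitor, chemokine and cytokine lists and in 7.38% of the windows of all genes tested. The list share counts all tested members, called or not, so it describes the lists and not the response to EloC KD. Windows of the 2-fold higher and lower genes held it in 7.12% and 7.08%. The stretches below lie upstream of the start and have the match in capitals, which CCL20 carries on the reverse strand:
CCL20 chr2:227813718-227813837 (plus strand): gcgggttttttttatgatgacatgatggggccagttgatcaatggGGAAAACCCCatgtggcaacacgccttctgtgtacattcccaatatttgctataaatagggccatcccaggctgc
IL6 chr7:22727080-22727199 (plus strand): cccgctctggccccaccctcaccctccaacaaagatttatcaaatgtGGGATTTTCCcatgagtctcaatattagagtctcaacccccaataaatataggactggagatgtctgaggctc

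Most transcription factor genes of the AP-1 family rose. Of 12 tested AP-1 and ATF genes, which encode the leucine zipper factors that bind stress and growth factor response elements, 8 were higher and none lower (median 0.72; the same counts without EloC KD replicate 2). ATF3, a stress-induced repressor, had 446.5, 365.3 and 360.4 counts in Control KD and 1692, 2621 and 1800 in EloC KD. JUN went from 3604, 4842 and 4798 to 7483, 9242 and 9264, and FOS, FOSL2 and MAFG rose by 1.15, 0.71 and 0.89 on the log2 scale. Feedback genes of the ERK pathway split, with 6 of 15 higher and 5 lower. The phosphatase genes DUSP5, DUSP10, DUSP1 and DUSP7 rose (log2 1.79, 2.14, 1.57 and 0.87), while the Sprouty gene SPRY4 fell from 9306, 9701 and 8009 to 4684, 4881 and 4433. Of 9 tested ligands of the EGF receptor family 2 were higher and 1 lower, with HBEGF at 1.27 ± 0.16 and BTC at -0.91 ± 0.14.

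Most tested matrix metalloproteinases, secreted enzymes that cut the extracellular matrix, rose. Of 13 genes 11 were tested, 7 of them higher and none lower (median 1.14; 6 and none without EloC KD replicate 2). MMP3, stromelysin-1, had 9.42, 6.15 and 12.2 counts in Control KD and 286.0, 325.9 and 251.6 in EloC KD. MMP10, stromelysin-2, went from 169.6, 150.2 and 157.1 to 1080, 999.0 and 837.8, log2 2.60 ± 0.14 with a limma adjusted p of 2.66e-06. MMP7, matrilysin, went from 5.65, 3.51 and 4.87 to 38.6, 92.2 and 43.1, and the interstitial collagenase MMP1 from 1602, 815.8 and 1511 to 3439, 2272 and 2921. EloC KD replicate 2 was the highest library for MMP7 and MMP3 and the lowest for MMP1. MMP7 passed the filter on low values through its EloC KD libraries, so its higher call is not independent of the filter. The tissue inhibitor TIMP2 and the plasminogen activator PLAU rose too (0.89 and 0.43), as did the urokinase receptor gene PLAUR (1.11) and the elastase inhibitors SLPI and PI3 (1.16 and 1.86): 6 of 13 genes of this list were higher and none lower. When replicate numbers were a block, 7 metalloproteinases were higher and 1 lower.

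The AP-1 motif TGANTCA, searched on both strands in the same windows, was in 106 of 899 windows (11.8%) of the 2-fold higher genes, in 5.66% of the windows of all genes tested and in 4.82% of those of the 2-fold lower genes. Over the alternatives of the gene calls the share for higher genes ranged from 10% to 12.2%. Other motifs gave smaller differences in percentage points for higher genes: the CARE element TGATGNAA 4.45% against 2.2% of all windows, and the TEAD site GGAATGT 4% against 2.43%. In relative terms the difference for the rarer CARE element was close to that for the AP-1 motif. Of the 5 metalloproteinase windows available 2 held the AP-1 match, both 67 to 61 bases before the start; they were chosen for display after the values were seen, and the match is in capitals:
MMP7 chr11:102530748-102530867 (minus strand): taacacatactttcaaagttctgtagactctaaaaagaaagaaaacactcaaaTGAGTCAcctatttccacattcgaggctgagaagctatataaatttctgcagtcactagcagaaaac
MMP10 chr11:102780629-102780748 (minus strand): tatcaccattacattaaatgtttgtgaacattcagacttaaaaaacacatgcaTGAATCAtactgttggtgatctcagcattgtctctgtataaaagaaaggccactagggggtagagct

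Neighbours of genes that rose were often higher themselves. Each 2-fold higher gene has neighbour positions, the next tested gene on either side. Of 1554 such positions, 216 held a gene higher 2-fold (13.9%), against 5.65% of all genes. A pair of adjacent higher genes is counted from both sides. Without EloC KD replicate 2 the share was 11.6%, with 1127 genes called 2-fold in either direction in place of 1435. For 2-fold lower genes 100 of 1308 neighbour positions, counted in the same way, held a gene lower 2-fold (7.65%, against 4.78%). The count includes tandem gene families, whose reads can be shared between copies, and overlapping genes, since the sources used here do not say whether counting used the strand. In the longest runs 5 adjacent tested genes were all higher 2-fold. On chromosome 11 (102520508 to 102955734) these were MMP7, MMP10, MMP1, MMP3 and MMP13, and the flanking genes TMEM123 and DCUN1D5 had log2 values of -0.35 and 0.31. On chromosome 12 they were TAMALIN, NR4A1, ATG101, KRT80 and KRT7.

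Further runs, chosen after their values were seen, included some genes of immune function. On chromosome 19 (6530999 to 6730562) the ligand genes TNFSF9, CD70 and TNFSF14 and the complement gene C3 rose by 2.33, 1.27, 1.05 and 2.34 on the log2 scale. On chromosome 2 CCL20, DAW1, PID1 and DNER were all higher, and on chromosome 4 CXCL1, CXCL3 and CXCL2. DAW1 and TNFSF14 were near the threshold (limma adjusted p 0.0451 and 0.0459). TNFSF14 was also low, with mean counts of 11 in Control KD and 23.3 in EloC KD. IL24 and FCMR, both higher, lie 246 bp apart. Among lower genes, the trefoil factor genes TFF3, TFF2 and TFF1, which encode secreted mucosal peptides, stood in 1 run on chromosome 21 (log2 -1.22, -1.11 and -1.24). CDH1 and its neighbour CDH3, 14608 bp apart, both fell (-2.48 and -1.26).

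**Figure D3:**
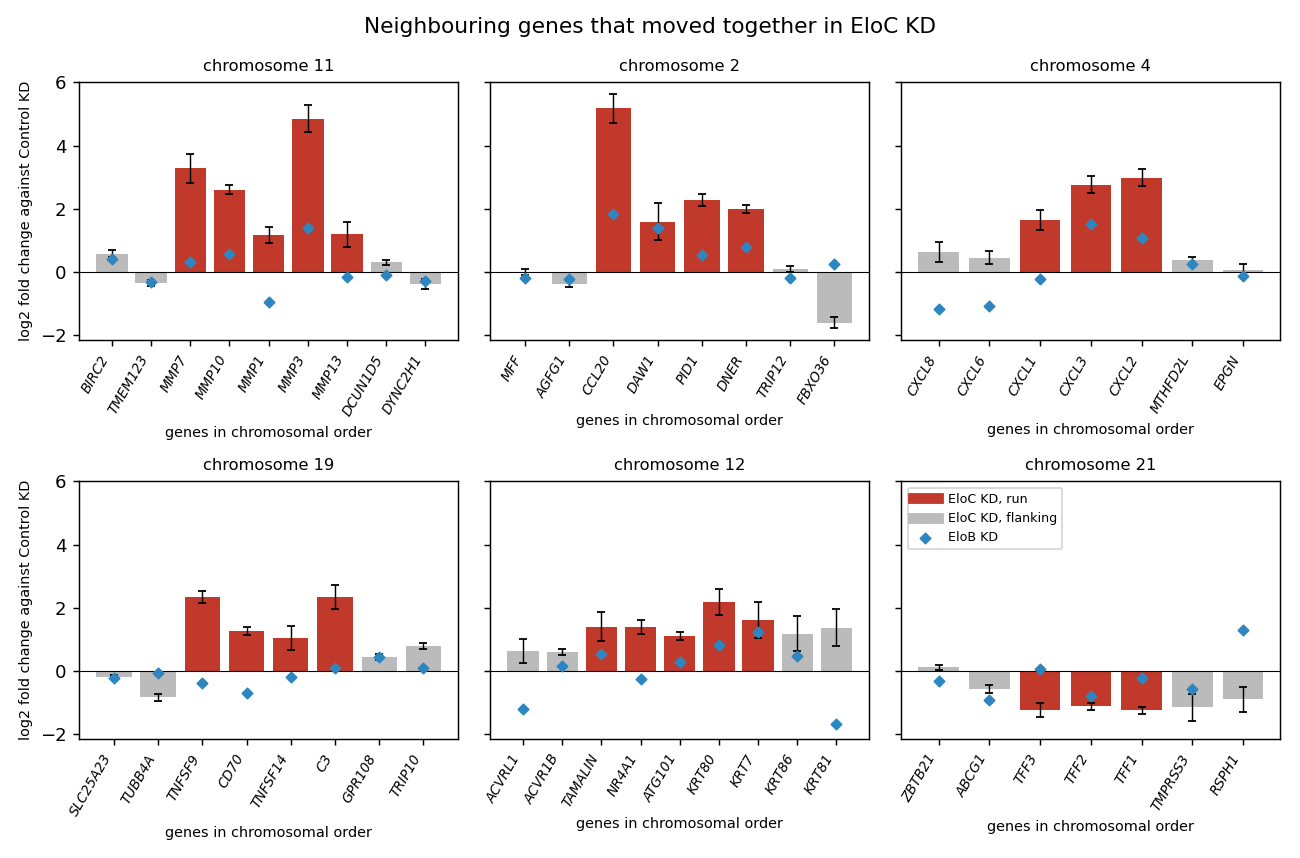
Log2 fold change against Control KD of the genes in 6 chromosomal runs (red bars) and of the 2 tested genes on either side (grey bars), in chromosomal order, with standard errors; blue diamonds mark the EloB KD values of the same genes, which share the control libraries. The 5 metalloproteinase genes of chromosome 11 range from 1.18 to 4.85 between flanking genes within 0.6 of zero.

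Prostate epithelial markers and other epithelial genes differed in direction. Of 7 prostate epithelial markers 5 were lower and none higher (median -0.96; the same counts without EloC KD replicate 2). EPCAM, the epithelial adhesion molecule, had 1945, 1627 and 1573 counts in Control KD and 573.9, 365.5 and 607.3 in EloC KD. HOXB13, the prostate lineage factor, went from 20942, 16956 and 21752 to 7749, 5317 and 8311, and the keratin gene KRT18 from 5136, 6137 and 5796 to 2547, 2704 and 3639. In bulk RNA, fewer cells of a type and less RNA per cell cannot be told apart. Of 23 tested epidermal and keratin genes 6 were higher and 4 lower (median 0.35; 4 and 3 without EloC KD replicate 2): KRT80 rose (2.20 ± 0.41), as did the calcium-binding protein gene S100A11 (0.86 ± 0.09), while KRT18, which is also a prostate marker here, fell. The replicate block gave 11 higher and 6 lower genes in this list. Junction genes went both ways (11 of 26 higher, 6 lower): the cadherin genes CDH2 (N-cadherin, 3155, 3437 and 3123 against 9955, 11561 and 8613) and CDH11 (0.82 ± 0.08) and the desmosomal genes DSG2 and PKP2 (0.93 and 1.10) rose, while CDH1 and CDH3 (P-cadherin) fell.

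Laminin and collagen genes rose in 18 of 27 cases and fell in 2 (median 0.76; 13 and 1 without EloC KD replicate 2). COL1A1, a chain of the main fibrillar collagen, had 567.1, 485.6 and 657.4 counts in Control KD and 2388, 2464 and 1919 in EloC KD. COL16A1 went from 35.8, 89.6 and 64.5 to 338.4, 807.1 and 393.7, and the basement membrane and anchoring collagen genes COL4A1 and COL7A1 rose by 1.39 and 1.49. Markers of fibroblasts, another source of collagen, moved both ways: of 6 tested, COL1A1, LUM and PDGFRA were higher and PDGFRB and COL1A2 lower, and without EloC KD replicate 2 the counts were 3 and none. Their summed level was 946.6 to 1317 in Control KD and 2978 to 3686 in EloC KD, of which COL1A1 made the most. LUM had a mean of 11.3 counts in Control KD and 40.8 in EloC KD, and the markers that did not reach the filter were DCN (0.72 and 13.9), FAP (3.33 and 8.39) and THY1 (1.42 and 2.82). All libraries are of the PC3 line by their labels, and a part of any other cells in the collagen values was not tested. Integrins moved both ways (4 of 15 higher, 3 lower), with ITGA5, a fibronectin receptor subunit, going from 7949, 9141 and 6618 to 22201, 26952 and 18615 and ITGB4, the hemidesmosomal subunit, from 25523, 51896 and 27438 to 11399, 8143 and 10949. With the replicate block 7 integrins were higher and 5 lower.

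The Hippo pathway restrains the coactivators YAP and TAZ. Of 19 tested target genes of this pair 11 were higher and 2 lower (median 0.69; 10 and 2 without EloC KD replicate 2). CCN1, a matricellular protein, had 1580, 2110 and 2459 counts in Control KD and 6546, 15558 and 9252 in EloC KD, and AMOTL2 and AJUBA, junction scaffolds that feed back on the pathway, rose by 1.57 and 1.31 on the log2 scale. EloC KD replicate 2 was highest for CCN1. Of 29 tested genes of the TGF-beta family 9 were higher and 7 lower. The ligand genes GDF15, BMP2 and TGFB2 rose (log2 1.73, 1.89 and 2.06). The type 2 receptor gene TGFBR2 rose and the type 1 receptor gene TGFBR1 fell: TGFBR2 went from 7437, 7969 and 7161 to 17056, 22481 and 13526 and TGFBR1 from 2687, 2524 and 2535 to 1111, 1110 and 1146.

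**Figure D4:**
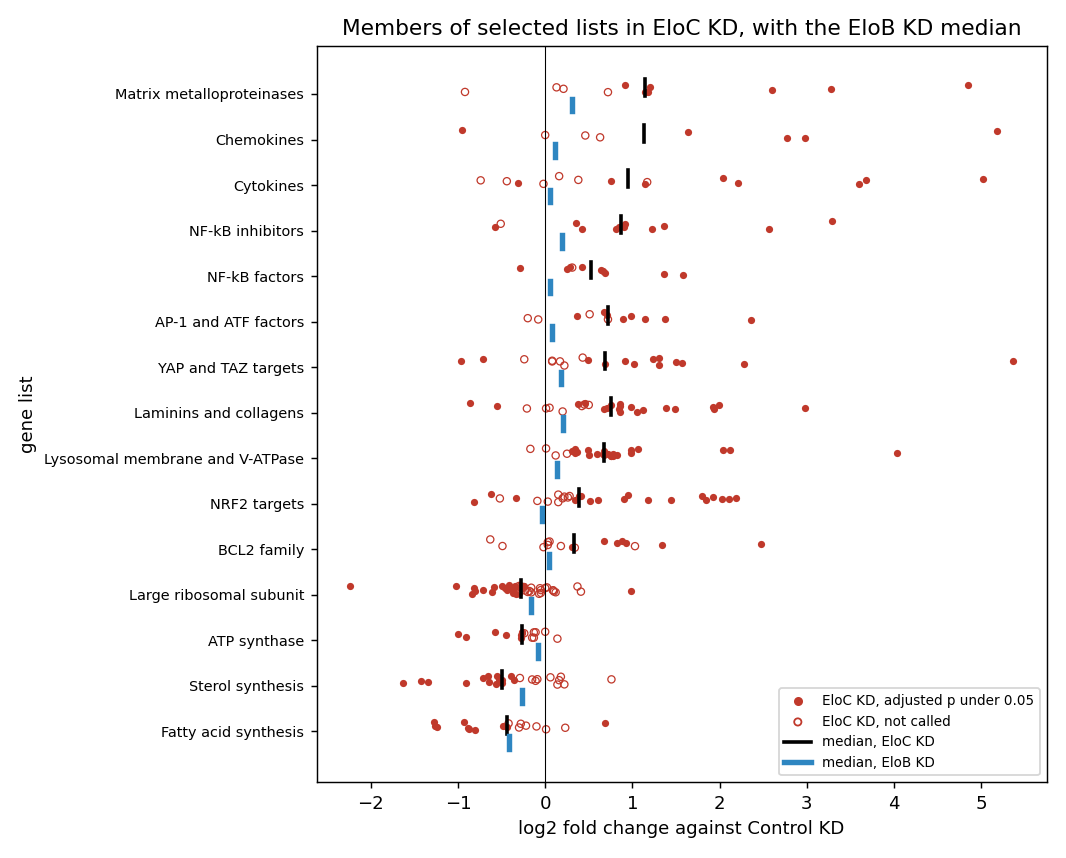
Log2 fold change against Control KD of each tested member of 15 lists in EloC KD (red; filled where the adjusted p was under 0.05, open otherwise), with the list median in EloC KD (black bar) and in EloB KD (blue bar, from comparisons that share the control libraries). The medians in EloC KD range from 1.14 for matrix metalloproteinases to -0.49 for sterol synthesis genes.

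Lysosomal genes rose in large number. Lysosomes degrade material delivered by endocytosis and autophagy, and their lumen is acidified by the V-ATPase proton pump. Of 26 tested genes of the lysosomal membrane and V-ATPase 22 were higher and none lower (84.6%; median 0.67; 19 and none without EloC KD replicate 2). LAMP1, an abundant membrane glycoprotein, had 6096, 7052 and 6936 counts in Control KD and 11466, 16746 and 11842 in EloC KD. MCOLN1, the calcium channel TRPML1, went from 1162, 1189 and 1197 to 2004, 2983 and 2144, and the pump accessory gene ATP6AP1 from 5523, 5832 and 5543 to 9046, 11582 and 9468. ATP6V0D2, the pump subunit isoform of osteoclasts and macrophages, stood apart with a rise from 2.83, 10.5 and 6.09 to 106.9, 140.4 and 89.5 (16.4-fold). Of 32 hydrolases 16 were higher and 4 lower (median 0.40; 12 and 3): the cathepsin gene CTSD went from 1797, 3117 and 3631 to 6344, 10989 and 8818 and the protective protein gene CTSA from 13569, 14812 and 12866 to 28040, 39163 and 26773, the sialidase gene NEU1 rose by 1.41, and the fucosidase gene FUCA1 fell (-0.76 ± 0.10).

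The CLEAR element TCACGTGA, bound by the lysosomal regulators TFEB and TFE3, was in 6 of 54 promoter windows (11.1%) of these lysosomal lists, in 1.57% of the windows of all genes tested and in 1.45% of those of the 2-fold higher genes. Members of the lists count here whether called or not, so their share does not describe the response to EloC KD. MCOLN1 carries 2 matches upstream of its start and CTSA 1 (capitals):
CTSA chr20:45891215-45891334 (plus strand): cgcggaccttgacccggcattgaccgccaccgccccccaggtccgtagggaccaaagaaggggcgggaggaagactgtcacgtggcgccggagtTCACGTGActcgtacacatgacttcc
MCOLN1 chr19:7522504-7522623 (plus strand): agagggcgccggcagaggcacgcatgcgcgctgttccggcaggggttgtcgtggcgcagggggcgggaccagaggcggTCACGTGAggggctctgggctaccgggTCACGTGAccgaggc

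Autophagy genes rose in 12 of 32 cases and fell in 3 (median 0.28; 10 and 3 without EloC KD replicate 2). The cargo receptor gene SQSTM1 (p62) had 7300, 10402 and 9164 counts in Control KD and 22122, 31573 and 23469 in EloC KD, and ATG3 and WIPI2 rose by 0.62 and 0.48 on the log2 scale. Kinase complex members moved both ways. RB1CC1, the scaffold FIP200, fell from 4399, 3722 and 3852 to 1767, 1623 and 1505. ULK2 fell from 693.4, 854.4 and 691.5 to 368.1, 319.4 and 334.7. ATG101, of the same complex, rose by 1.12 ± 0.13 (named after its value was seen).

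Targets of the antioxidant factor NRF2 were higher in 15 of 27 cases and lower in 3 (median 0.39; 12 and 3 without EloC KD replicate 2). HMOX1, which degrades heme, had 857.3, 872.0 and 857.1 counts in Control KD and 3191, 3890 and 3528 in EloC KD. The libraries of each group lay close together (log2 2.03 ± 0.11, limma adjusted p 2.66e-06). The aldo-keto reductase genes AKR1B10, AKR1C1 and AKR1C3 rose by 1.93, 2.19 and 2.11, but they are close paralogs whose reads could be shared in counting. UGDH, which makes UDP-glucuronate, rose by 0.95. Of 27 targets of the amino acid response factor ATF4 9 were higher and 6 lower: SESN2, an inhibitor of mTORC1 signalling, rose from 472.9, 440.0 and 507.7 to 1193, 1366 and 1110 and PPP1R15A, the phosphatase subunit GADD34, by 1.24, while the tryptophanyl-tRNA synthetase gene WARS1 fell from 11760, 11608 and 11200 to 5659, 4954 and 6376 and the amino acid transporter gene SLC1A4 was at -1.27 ± 0.15.

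Genes of protein folding and turnover changed little beside these. Of 23 genes of endoplasmic reticulum folding 4 were higher and 1 lower, with HERPUD1 at 0.70 ± 0.13, and of 18 tested heat shock genes 4 were higher and 1 lower, with the co-chaperone gene DNAJB4 at 1.21 ± 0.19. Of 31 proteasome genes 5 were higher and 2 lower (median 0.08), the largest of them PSMC4 at 0.52 ± 0.10. Under the replicate block 7 folding genes, 9 heat shock genes and 9 proteasome genes were higher. The counts of lower genes were then 3, 4 and 2. HSPA1A, which has a near-identical copy, is listed at 0 in all 6 libraries and was not tested.

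Most genes of lipid synthesis fell. Of 25 sterol synthesis genes 15 were lower and none higher (60%; median -0.49; 12 and none without EloC KD replicate 2), and of 17 fatty acid genes 9 were lower and 1 higher (median -0.44; 10 and 1). SREBF2, the factor that drives the sterol genes, had 9437, 9806 and 8692 counts in Control KD and 4961, 4730 and 5118 in EloC KD. INSIG1, which retains it in the endoplasmic reticulum, went from 4693, 3365 and 2693 to 1153, 987.2 and 1268, and TM7SF2, a sterol reductase, from 786.6, 972.1 and 851.0 to 329.5, 306.6 and 336.8. FDPS, which makes farnesyl diphosphate, was at -0.71 ± 0.12 and IDI1, an isomerase before it, at -0.65 ± 0.11. The elongase genes ELOVL1 and ELOVL5 fell to log2 values of -1.26 and -0.93, and the desaturase genes FADS1 and FADS2 to -1.27 and -0.89. In the fit with the replicate block, 1 sterol gene was higher and 16 lower, and 2 fatty acid genes were higher and 13 lower.

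Targets of hypoxia-inducible factors and genes of glycolysis were lower in 15 of 34 tested cases and higher in 3 (median -0.24; 11 and 3 without EloC KD replicate 2). NDRG1, a stress-responsive gene at a very high level in these cells, had 153046, 160129 and 111822 counts in Control KD and 63209, 49765 and 71608 in EloC KD. MXI1, a MYC antagonist, went from 7499, 5446 and 5184 to 2598, 1815 and 2482, and GPI, the isomerase of glucose-6-phosphate, from 22247, 25075 and 21397 to 12471, 9960 and 13712. PDK1 and PFKFB4, kinases that steer pyruvate and fructose-2,6-bisphosphate, fell to log2 values of -0.56 and -0.86.

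Many genes of the translation apparatus fell, most by small amounts. Of 44 genes of the large ribosomal subunit 21 were lower and 1 higher (47.7%; median -0.28; 15 and 1 without EloC KD replicate 2), and of 31 tested genes of the small subunit 12 were lower and none higher (38.7%; median -0.21; 7 and none). RPL4 lay apart, with 33124, 31573 and 29155 counts in Control KD and 6643, 5467 and 7910 in EloC KD; RPL3 went from 37979, 42290 and 38981 to 19805, 17110 and 22134. These genes have many pseudogenes that could take reads in counting. The largest fall in the small subunit was that of RPS4X, from 68554, 65713 and 55880 to 42138, 37315 and 43257. Of 34 tested translation factors 11 were lower and 4 higher: the eIF3 subunit genes EIF3B, EIF3F and EIF3L were at -0.45, -0.54 and -0.49, while EIF4E, the cap-binding protein gene, and EIF4EBP1, its inhibitor, rose (0.51 and 0.52). When replicate numbers were a block, 3 large subunit genes were higher and 28 lower.

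Nuclear genes of the respiratory chain fell in 11 of 28 cases for complex I (1 higher) and in 8 of 15 for the ATP synthase (none higher; 53.3%). ATP5F1B, the catalytic beta subunit, had 84075, 76674 and 80678 counts in Control KD and 41988, 36894 and 50424 in EloC KD, and ATP5MF went from 5956, 5610 and 5053 to 2700, 2486 and 3148. The complex I subunit genes NDUFV2 and NDUFA5 were at -0.71 ± 0.10 and -0.63 ± 0.10. COX7C, a small subunit of complex IV, rose against this direction (0.81 ± 0.09). Of the 13 genes encoded by mitochondrial DNA 1 was higher and none lower (median 0.27), and Control KD replicate 2, which had the smallest share of mitochondrial reads (2.6%), had the lowest list median of the controls (-0.48, against 0.33 and 0.21). Genes of the mitochondrial ribosome were evenly split (5 of 32 higher, 5 lower). With the replicate block 10 of these were higher and 8 lower, 6 mitochondrially encoded genes were higher, and 3 complex I genes were higher and 13 lower.

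**Figure D5:**
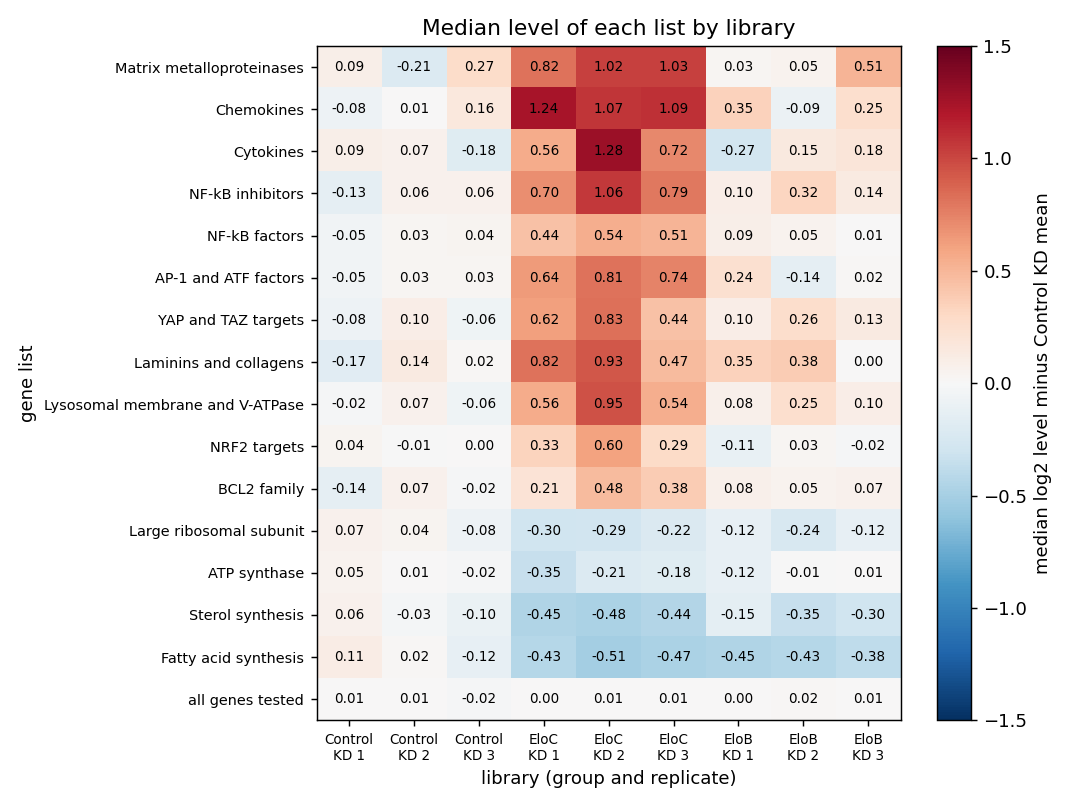
Median over each list's tested members of the log2 level in a library minus the mean of the 3 Control KD libraries, for the 9 knockdown libraries (columns) and 15 lists (rows), with the median over all 13764 genes in the last row. All 3 EloC KD libraries lie on the same side of zero in each list, and replicate 2 is highest for cytokines (1.28) and lysosomal membrane genes (0.95), though not for chemokines (1.07, against 1.24 and 1.09).

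Replication and mitosis genes gave few calls. Of 35 DNA replication genes 6 were lower and 1 higher (17.1% and 2.86%; 3 and none without EloC KD replicate 2), led by the helicase gene MCM3 (-0.81 ± 0.15) and the GINS gene GINS4 (-1.12 ± 0.23). Of 34 tested mitosis genes 2 were lower and 1 higher. BIRC5, which encodes survivin, had 11575, 14778 and 17836 counts in Control KD and 5122, 4216 and 7421 in EloC KD, and MAD2L1, of the spindle checkpoint, fell as well (-0.90 ± 0.21). Regulators of cyclin-dependent kinases changed in both directions (8 of 27 higher and 8 lower). CCND1, cyclin D1, went from 27753, 25646 and 25609 to 42213, 42353 and 38307 and the repressor gene E2F7 from 3482, 3528 and 3607 to 7950, 8657 and 6207; RBL2, the pocket protein p130, fell from 6914, 6540 and 5706 to 2470, 1621 and 2231, and CDKN2B, the inhibitor p15, from 7078, 5654 and 5146 to 2724, 2576 and 2234. CCNE1, cyclin E1, was at -1.30 ± 0.13. Of 16 tested histone genes of the replication-dependent kind 5 were lower and none higher, with H2BC4 at -1.59 ± 0.19; their transcripts mostly lack the poly(A) tail that the mRNA library selects. Under the replicate block 11 replication, 6 mitosis and 8 histone genes were lower, and 1 replication and 1 mitosis gene higher.

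Genes of the BCL2 family rose in part, while death receptor and caspase genes were higher about as often as all genes. Of 16 genes of the BCL2 family, which sets mitochondrial permeability, 7 were higher and none lower (43.8%; median 0.33; 6 and 1 without EloC KD replicate 2). BMF, a BH3-only activator of death, had 469.2, 390.8 and 253.2 counts in Control KD and 2301, 2609 and 1328 in EloC KD. The pro-death genes PMAIP1 (NOXA), BAK1 and BBC3 (PUMA) rose by 0.82, 0.67 and 1.34, and so did BCL2L1, which encodes the survival protein BCL-XL, from 11554, 16021 and 12597 to 23185, 26463 and 23885. Of 22 tested death receptor and caspase genes 5 were higher (22.7%) and 2 lower (9.09%), beside 21.3% and 21.2% of all genes. The receptor gene FAS rose from 395.7, 320.5 and 454.1 to 1093, 935.8 and 1037. BIRC3, an inhibitor of apoptosis induced by NF-kB, rose from 232.7, 177.4 and 142.4 to 1223, 3650 and 1233. EloC KD replicate 2 was about the level of the others for FAS and well above them for BIRC3. FAIM, an inhibitor of FAS signalling, fell (-1.31 ± 0.18). In the fit with the replicate block, 9 BCL2 family genes were higher and 2 lower.

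Interferon-stimulated genes, which answer antiviral signalling, gave no higher call. Of 34 tested, none was higher and 7 were lower (20.6%; median -0.19), near the background share, and without EloC KD replicate 2 only 1 was lower. OAS3, an antiviral synthetase, was at -0.95 ± 0.21 (adjusted p 0.00476, limma). Among 18 genes of antigen presentation 5 were higher and 1 lower (2 and 1 without EloC KD replicate 2): CD274, which encodes the checkpoint ligand PD-L1, rose from 34.9, 41.3 and 40.2 to 171.2, 233.7 and 213.7, and the peptidase gene ERAP2 fell from 1602, 1466 and 1183 to 673.9, 626.0 and 640.0. Polycomb genes gave 4 higher and 3 lower of 29, with CBX6 going from 5644, 6774 and 6986 to 1997, 1769 and 2363 and its neighbour NPTXR falling 4.94-fold; MTF2 and BMI1 rose (0.97 and 0.70). Splicing factors gave 4 higher and 5 lower of 29, the largest SF3A1 at -1.03 ± 0.12. When replicate numbers were a block, 1 interferon-stimulated gene was higher and 13 lower. Antigen presentation genes then gave 7 higher and 2 lower, and polycomb genes 5 higher and 7 lower.

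The response was set beside EloB KD, the other subunit of the pair, in which 2822 genes (20.5%) differed from Control KD, 9.34% higher and 11.2% lower. Both comparisons use the same 3 control libraries, so the knockdowns were compared directly. EloC KD differed from EloB KD in 6343 genes (46.1%). Of the 777 genes higher 2-fold in EloC KD, 566 (72.8%) were also above EloB KD and 10 were below it, and of the 658 lower genes 530 (80.5%) were below EloB KD and 4 above; these genes were chosen on the EloC KD libraries, so the shares are a description. The median log2 fold changes of the higher genes were 1.43 in EloC KD and 0.46 in EloB KD, and of the lower genes -1.30 and -0.17. TNFAIP3 had 375.5, 432.2 and 396.8 counts in EloB KD and lay higher in EloC KD by 2.20 ± 0.14 on the log2 scale (limma adjusted p 4.69e-06), HMOX1 by 1.94 ± 0.11, DUSP5 by 1.84 ± 0.11, CDH2 by 1.60 ± 0.15 and COL1A1 by 1.82 ± 0.19. IL24 had 23.3, 23.1 and 33.1 counts in EloB KD, the level of Control KD.

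Other genes changed in EloC KD did not differ from EloB KD past the threshold in the fit without the replicate block. With the block 8171 genes differed between the knockdowns in place of 6343, and its values for the genes below are not given. FAM20A had 87.6, 35.5 and 69.1 counts in EloB KD (EloC KD minus EloB KD -0.03 ± 0.48, limma adjusted p 0.964) and REG4 403.5, 207.5 and 270.8 (0.14 ± 0.29, 0.724). FADS1 and FADS2 differed by 0.01 ± 0.17 and 0.01 ± 0.12 between the knockdowns (limma adjusted p 0.969 and 0.959), and fatty acid genes had medians of -0.44 in EloC KD and -0.42 in EloB KD. BCL2L1 differed by 0.15 ± 0.12 (adjusted p 0.332) and HOXB13 by -0.33 ± 0.18 (0.16). A p that misses the threshold does not show that these levels were equal. Chemokines had a median difference from EloB KD of 1.66 (6 of 8 members above it and 1 below), NF-kB inhibitors of 0.87 (8 of 12 above and 1 below) and cytokine receptors of 0.81 (11 of 17 above and 3 below), beside 23.8% of all genes above and 22.3% below.

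The wild-type BC-box peptide was compared with the scrambled peptide in separate libraries, in which 188 of 13105 genes were called (110 higher, 0.839%; 78 lower, 0.595%). That count was unstable: it was 95 and 98 without scrambled replicates 1 and 2, 67 and 66 without wild-type replicates 1 and 3, and 2122 with replicate numbers as a block. The counts below rest on the 188. Of the 777 genes higher 2-fold in EloC KD 619 were tested there, and 1 was higher (0.162%; LPXN, a focal adhesion protein, at 0.41) and 10 were lower (1.62%). The lower ones, named after their values were seen, included CXCL3 (log2 -1.45), PI3 (-1.01), MMP10 (-0.99) and CPA4 (-0.67), all of which rose in EloC KD. Of the 658 genes lower 2-fold in EloC KD 618 were tested, and 3 were higher (0.485%; BIRC5, SGCB and C12orf75) and 5 lower (0.809%; ITGB4, FST, PPL, GYS1 and ANKRD36C). The experiments differ in serum, duration and mode of inhibition, and these cannot be told apart.

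Medians differed little with gene structure. Median log2 fold changes lay between -0.02 and 0.09 over 7 bins of gene span, and between -0.02 and 0.04 over 6 bins of exon number. In the longest genes 27.3% were higher and 19.3% lower, and in the shortest 20.3% and 15.8%. Among the chromosomes, 21 had the lowest median (-0.14; 14.6% of 130 genes higher, 29.2% lower), followed by 22 (-0.07; 11.7% and 20.4% of 309). For chromosome 8, which holds ELOC, the median was 0.06.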

How the data were processed

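RNA from PC3 cells was sequenced as stranded mRNA libraries. Per the submitters' processing notes, reads were counted with featureCounts against hg38 and scaled with DESeq2; versions, aligner and use of strand are not given in the sources used here. The deposited signal values are the authors' read counts per gene divided by 1 size factor per library, and 100% of values came out as whole reads within 0.05 when multiplied back, from 40.3 to 57.2 M reads per knockdown library. The authors' deposited table for EloC KD, with log2 fold changes and adjusted p-values from DESeq2, was used only for a count of shared calls: it called 6269 genes, and 5788 of the 5844 genes called here were among them, all with the same sign.

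Genes averaging 10 or more normalised counts across the 9 knockdown libraries were analysed as log2(normalised count + 1). They were fitted with limma 3.58.1 (R 4.3.3) with an intensity trend over the 9 libraries, with Benjamini-Hochberg adjustment over all genes and a threshold of 0.05. This main fit held group means only and did not use the pairing by replicate number. An exact permutation test of 3 libraries against 3 cannot go below p = 0.1. Replicate numbers pair the samples: deviations from group means of Control KD and EloC KD libraries correlated at 0.438 to 0.542 for the same number and at -0.403 to -0.171 otherwise. Pairs with EloB KD libraries of the same number reached from 0.236 to 0.566, and of other numbers from -0.439 to 0.0703. Deviations from a group mean cancel within the group, so the values for other numbers are not independent of those for the same number. Alternatives were TMM and quantile scaling, pseudocounts of 0.5 and 5, other filters on low values, the replicate block, 6 libraries only, no trend, a stricter threshold, edgeR 4.0.16 and DESeq2 1.42.0 on the recovered reads, and each library left out in turn.

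Gene positions are from GENCODE v29 (GRCh38), and promoter windows from RefSeq (GRCh38.p14). Named genes are the Elongin genes, the 15 highest and 15 lowest log2 fold changes among called genes with a mean of at least 50 and groups that do not overlap, and up to 5 members of each list with the smallest adjusted p; others are said to be chosen after their values were seen. The gene set, the lists and the rule were chosen with earlier results of these data known. A list of small nucleolar RNA host genes had 0 of 17 members in the table and was not used here. A few genes under this rule are not reported here.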

Additional observations from a re-analysis of the deposited data

How the results depend on the processing

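A threshold of 0.01 left 3774 genes, 1851 higher and 1923 lower. Under the 18 other alternatives, at the threshold of 0.05, no called gene was called in the opposite direction and 4436 to 5844 of the 5844 were called again. Leaving out 1 library gave 4506 to 5413 genes (1127 to 1555 at 2-fold), 2167 to 2710 higher and 2339 to 2703 lower, fewest without EloC KD replicate 2. edgeR called 5845 genes and DESeq2 6303 on the recovered reads. With the replicate block 7841 genes were called against Control KD and 8171 against EloB KD. For the wild-type peptide the replicate block gave 2122 genes in place of 188, and leaving out 1 library 66 to 180: 95 and 98 without scrambled replicates 1 and 2, and 67 and 66 without wild-type replicates 1 and 3. The cause of these differences was not tested.

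Of 293 genes under the naming rule 272 were called, 238 of them under each of the 18 alternatives at the threshold of 0.05. Of the 21 not called, 15 passed under some of these. Of 2016 list counts under them 1807 stayed within 1.5 times. PDGFRA, PDGFRB and COL1A2 were among the genes that lost their call under some. Counting error is small at these depths except for genes with a few reads in a group, such as CCL20 in Control KD.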
